A study of Homo sapiens with 9 samples.

Results

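The regions described here were promoters with an ATAC-seq peak after both siRNAs against INO80 and no peak after the control siRNA. They numbered 330 of the 109960 accessible regions on chromosomes 1 to 22. The members were chosen by the peak calls themselves. The peaks of the 3 lists were merged wherever they overlapped or touched, and a merged region was kept when it held a peak of both siINO80 lists, held none of the control list, and came within 1 kb of the start of a protein-coding transcript (GENCODE release 44 on GRCh37). Of all 14679 promoter regions, 2.25% met this rule. As the rule used the calls, the absence of a control peak was not a result. Sequence, base composition and the kind of start were not used by the rule, and these were compared between the members and the promoters found in NTG and 1 of the siINO80 lists, of which 1384 shared a peak with siINO80#1 and 228 with siINO80#2.

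ATAC-seq, in which a transposase cuts into open DNA and leaves sequencing adapters, was performed in HepG2 cells, an established human line from a liver cancer. All groups were transfected with 50 nM siRNA for 72 hours: NTG received a non-targeting siRNA, and siINO80#1 and siINO80#2 each received a different siRNA against INO80. Each group had 3 replicates, but the deposited data held 1 peak list per group, with 69730 peaks for NTG, 69333 for siINO80#1 and 53113 for siINO80#2. With 1 list per group, the spread between replicates could not be measured, so the siRNAs were compared by description alone. The relative read numbers behind the lists were recovered from the peak values. This assumed that the values follow the formulas of MACS2 and that the shortest peak of a list has the length of a fragment. The read numbers were then 1.43 (siINO80#1) and 1.44 (siINO80#2) relative to NTG. The part of this difference in depth in the results was not tested.

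The INO80 protein is the motor ATPase of a remodeling complex that slides nucleosomes and exchanges histone variants, and it is found at promoters and enhancers. Many promoters are rich in CpG dinucleotides and stay open in most cell types, whereas a gene can also have alternative starts, often poorer in CpG, that are used in some cell types or conditions. AP-1, made of dimers of the JUN and FOS families, is a transcription factor that responds to growth signals and stress and binds the sequence TGACTCA, whose reverse complement is TGAGTCA.

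The sequence feature that set the members apart was the AP-1 motif, and the stretches below show where it lay in members with strong peaks and in members at genes of the lists described further on. Each runs 5′ to 3′ on the strand of its gene, in GRCh37 coordinates, with the motif in capitals. ARHGAP21, GCNT1, NXPE2 and TSPAN19 were the members with the motif that ranked highest by the smaller of their within-list percentiles of fold enrichment, the ratio of reads at the summit to the local background of the same list. IFIT3, COL4A2 and LAMB3 were added after their values had been seen, because they were the listed genes whose member held the motif. The stretches of ARHGAP21 and GCNT1 were kept to 30 bases because they fell in annotated UTRs.
ARHGAP21, chr10:24995546-24995575, - strand: gctgacagaagcTGAGTCAgagaagagatg
GCNT1, chr9:79056946-79056975, + strand: ttcgcacagtgTGACTCAgagacacctctc
NXPE2, chr11:114548967-114549087, + strand: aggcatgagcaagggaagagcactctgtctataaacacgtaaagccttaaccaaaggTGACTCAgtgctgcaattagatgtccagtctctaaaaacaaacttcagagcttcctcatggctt
TSPAN19, chr12:85410338-85410458, - strand: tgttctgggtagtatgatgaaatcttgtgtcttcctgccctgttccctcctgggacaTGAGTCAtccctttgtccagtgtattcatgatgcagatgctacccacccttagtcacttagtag
IFIT3, chr10:91091967-91092087, + strand: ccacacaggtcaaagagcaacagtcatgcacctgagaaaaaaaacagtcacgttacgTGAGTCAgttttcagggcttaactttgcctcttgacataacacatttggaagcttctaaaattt
COL4A2, chr13:111155974-111156094, + strand: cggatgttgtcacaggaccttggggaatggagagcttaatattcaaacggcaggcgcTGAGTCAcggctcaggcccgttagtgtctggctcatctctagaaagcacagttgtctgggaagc
LAMB3, chr1:209824740-209824843, - strand: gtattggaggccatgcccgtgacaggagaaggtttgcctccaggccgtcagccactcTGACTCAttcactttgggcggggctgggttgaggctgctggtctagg

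These stretches were chosen for a motif within 100 bp of the summit. Its centre was 1 bp from the strongest summit at TSPAN19 and 12, 14 and 19 bp from it at NXPE2, COL4A2 and IFIT3. On the strand of the gene, it lay 26 bp downstream of the summit at ARHGAP21, 27 bp upstream at GCNT1 and 61 bp upstream at LAMB3. Relative to the nearest protein-coding start, the motif spanned the start at ARHGAP21, where its centre was 1 bp upstream, and lay 44 bp upstream at LAMB3. It lay 214, 222 and 289 bp upstream at IFIT3, NXPE2 and COL4A2. At GCNT1 and TSPAN19 it lay 378 and 976 bp downstream of a start, in both cases within the transcribed part of the gene.

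The pair of strongest members without the motif, CCSER2 and SYTL2, are shown for comparison. The CCSER2 stretch ends at the base before an alternative start, and the SYTL2 stretch spans one.
CCSER2, chr10:86184612-86184694, + strand: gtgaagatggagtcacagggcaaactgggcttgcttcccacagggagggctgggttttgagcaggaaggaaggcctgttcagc
SYTL2, chr11:85430190-85430219, - strand: taccctttacagaagaatagagaggctgtt

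The strength of the members was described first. The fold enrichment ranged from 1.88 to 7.59 in the siINO80#1 list, with a median of 2.79, and from 1.79 to 7.58 in the siINO80#2 list, with a median of 2.66. These medians corresponded to the 36.2 and 26.1 percentiles of all peaks in each list. Promoter regions of all 3 lists had medians at the 81.5 and 75.1 percentiles, so the members were weak beside the promoters open throughout. They were as weak as the promoters that NTG shared with 1 siRNA, whose medians were at the 36.5 percentile of siINO80#1 and the 25.7 percentile of siINO80#2. Strength decides whether a region is called in a list, and these values are given as a description only.

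The members rested on few reads, as did most peaks of the lists, whose median was 24 reads in siINO80#1 and 25 in siINO80#2. The reads recovered at the summit had a median of 26 in siINO80#1, with a range from 14 to 83, and a median of 24.5 in siINO80#2, with a range from 15 to 58. The median local background was 8.09 and 8.04 reads. A −log10 q of at least 5 was reached by 116 members in siINO80#1, by 73 in siINO80#2 and by 49 in both. The fold enrichment was higher in siINO80#1 in 185 of the 330 members. Across members, the Spearman correlation of the fold enrichment between the siINO80 lists was 0.542 (n = 330 regions, which share libraries and are not replicates), and across the 9392 promoter regions of all 3 lists it was 0.893. The members covered a narrower range, with quartiles in siINO80#1 of 2.41 and 3.39 against 3.83 and 7.45. The correlations are therefore not a comparison of how well the siRNAs agreed.

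**Figure D1:**
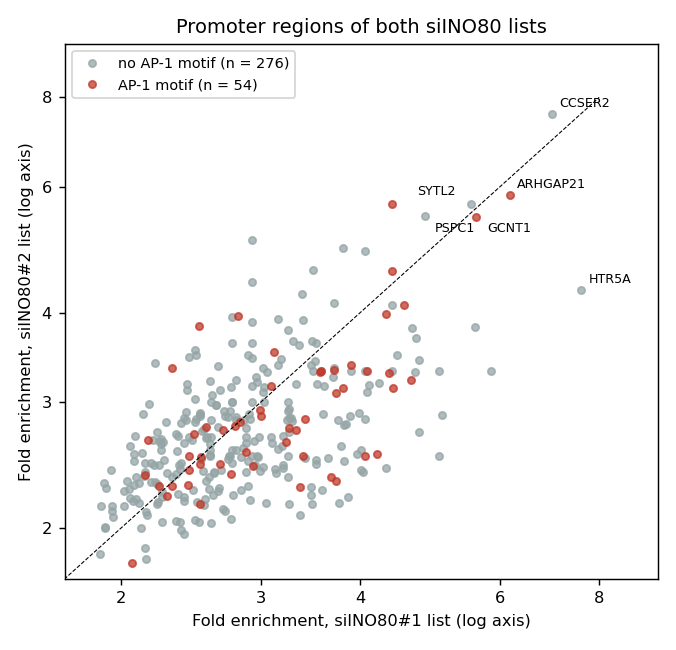
Fold enrichment of the 330 members in the siINO80#1 list (horizontal) and the siINO80#2 list (vertical), both on log axes, 1 point per region, with the 54 members that hold an AP-1 motif within 100 bp of the summit in red. The dashed line marks equal values. Most points lie below 4 in both lists, and CCSER2, ARHGAP21, SYTL2, GCNT1 and PSPC1 stand high in both.

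Of the 10 highest members, 6 lay at alternative starts, that is, with no start of an Ensembl canonical transcript within 1 kb. CCSER2 had the highest rank, with a fold enrichment of 6.99 in siINO80#1 and 7.58 in siINO80#2, from 42 and 47 reads at the summit. Its region (chr10:86184485-86184885) lay over an alternative start inside an intron, with the summit 23 bp upstream. The nearest NTG peak was 4915 bp away. ARHGAP21, a GTPase-activating protein, followed with 6.17 and 5.84, again at an alternative start within an intron, 27 bp upstream of it. GCNT1, an enzyme that branches O-linked glycans, had 5.61 and 5.44 at an alternative start, with the summit in an exon 405 bp downstream. SYTL2, a synaptotagmin-like protein of vesicle transport, had 5.52 and 5.68 at an alternative start, with the summit 7 bp downstream. For CCSER2, ARHGAP21 and GCNT1, but not for SYTL2, a different region of all 3 lists lay within 1 kb of a start of the gene.

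Other strong members lay at canonical starts. PSPC1, a protein of nuclear paraspeckles, had a fold enrichment of 4.84 and 5.46 with the summit 8 bp upstream of its canonical start, but an NTG peak was only 412 bp from the region. HTR5A, a serotonin receptor, had the highest value of all members in siINO80#1 (7.59, 55 reads) and 4.31 in siINO80#2 (31 reads), 130 bp upstream of its start and 60277 bp from any NTG peak. MMP10, a secreted metalloproteinase that degrades extracellular matrix, had 4.39 and 4.10, with the summit 34 bp upstream of its start (chr11:102651271-102651451) and 7742 bp from an NTG peak. The letters of the AP-1 motif were not found in the 200 bp around the MMP10 summit, and a TATA motif was. NXPE2 had 4.39 and 4.58, 234 bp upstream of its canonical start, and held the AP-1 motif.

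The remaining members of the 10 highest were TSPAN19, a tetraspanin, with 4.39 and 5.68, and FRYL, with 4.55 and 4.10. Both held the AP-1 motif and lay at alternative starts, with the summit 977 bp downstream and 1108 bp upstream. The next members with the motif were at a protein-coding gene that GENCODE gives no symbol, ENSG00000288614 (4.31 and 3.99), at TTC39A (3.90 and 3.38) and at CDH26 (3.71 and 3.33), a cadherin of cell adhesion. CDH26 was 1 of 5 members with 2 motifs, and 49 members had 1.

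Some members differed widely in strength between the siRNAs. SYT1, a calcium sensor of vesicle release, had 5.04 in siINO80#1 and 2.53 in siINO80#2, but the genome held 1050 near-identical copies of the 200 bp around its summit (at least 95% identity over at least 90% of the length), so reads there could not be assigned with certainty. CHFR, with 2 such copies, was the one other member with more than 1. The zinc finger genes ZNF892 and ZNF652 had 3.86 against 2.21 and 3.76 against 2.17, both at canonical starts. These 3 members had the largest differences in percentile.

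The values at the edge of the window are given for reference. GNG12 and LY9, the members farthest from a start, reached to 997 and 992 bp from it and had 2.85 and 2.59, and 3.68 and 2.36. C17orf99 and C1orf115, left out at 1001 and 1003 bp, had 2.08 and 2.24, and 2.60 and 2.46.

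The second question was how often regions shared by the siINO80 lists alone fell at promoters. Regions in exactly 2 of the 3 lists were counted, and the share of them in both siINO80 lists was 17.0% (95% Wilson interval 15.4 to 18.7, 330 of 1942) at promoters and 35.8% (35.0 to 36.5, 5361 of 14986) elsewhere. The difference was -18.8 percentage points (95% Newcombe interval -20.6 to -16.9). With the 53113 strongest peaks of each list, the shares were 28.8% at promoters and 43.1% elsewhere, so the level moved with list size while promoters stayed the lower. All intervals given here cover counting error over regions. They treat neighbouring regions as independent and leave out the spread between replicates. Promoters made up 5.80% of the 5691 regions of both siINO80 lists, against 16.6% and 7.91% of those that NTG shared with siINO80#1 and siINO80#2. They made up 5.83%, 5.55% and 3.52% of the regions of NTG alone, siINO80#1 alone and siINO80#2 alone, and 32% of those of all 3 lists. A low promoter share was thus not particular to the regions of both siINO80 lists.

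The AP-1 motif was then counted within 100 bp of the strongest summit of each region. It was found in 54 of the 330 members, or 16.4% (12.8 to 20.7). It was found in 3.97% (3.07 to 5.14) of the promoters of NTG with siINO80#1 and in 3.07% (1.5 to 6.20) of those of NTG with siINO80#2. The differences were 12.4 points (8.61 to 16.9) and 13.3 points (8.52 to 17.9). Promoters of all 3 lists held it in 4.13%, and all promoter regions in 4.58%. Among promoters of 1 list, the motif was in 3.51% of those called in NTG alone, 6.06% (4.90 to 7.48) of those in siINO80#1 alone and 7.21% (5.18 to 9.95) of those in siINO80#2 alone. The share was thus highest in the regions that the siINO80 lists had in common. With lists of equal size, 438 regions met the rule, of which 202 overlapped the 330 members and 236 did not. The 236 had a peak in the full NTG list. The motif was in 13.7% of the 438, against 4.02% and 5.15% of the promoters of NTG with siINO80#1 and siINO80#2. At a −log10 q of at least 5, 246 regions met the rule, and 197 of them had a peak in the full NTG list. The motif was in 17.5% of the 246, against 4.41% and 5.52%. Away from promoters, regions of both siINO80 lists held it more often still, in 32.8%, and the members were 16.4 points below this (difference -16.4, -20.2 to -11.8).

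AP-1 was 1 of 16 motifs searched on both strands, and a region could hold several. The CRE was searched as TGACGTCA, the motif of the FOXA factors of liver as TGTTTAC or, in its other form, TGTTTGC, and that of HNF4A as CAAAGTCCA. C/EBP was searched as TTGCGCAA, TTGCACAA, TTGTGCAA and TTGCATCA, TEAD as ACATTCC, NRF1 as GCATGCGC, and the ETS family as CCGGAAG. For SP and KLF proteins GGGGCGGGG was used, for NF-Y the forms CCAATCA and, alternatively, CCAATGA, and for the STAT family TTCCNGGAA. The TATA box was taken as TATAAA, the site of GATA factors as AGATAA, the E-box of MYC and USF as CACGTG, the RUNX site as TGTGGTT, and YY1 as AAGATGGC or AAAATGGC. AP-1 was the only one whose interval of the difference left out 0 against both classes, among 32 differences with no correction for their number. The FOXA motif was in 7.58% of members against 4.55% and 3.95%. The GATA motif was in 7.27% against 3.90% and 8.33%, and the TATA motif in 5.45% against 2.67% and 4.39%. Among motifs common in CpG-rich promoters, the SP motif was in 7.27% of members against 14.7% in the promoters of NTG with siINO80#1, and the NFY motif in 3.03% against 6.14%. Against NTG with siINO80#2, with 8.77% and 3.95%, the intervals of both differences held 0. The ETS (6.36% against 8.74% and 5.26%), NRF1 (2.73% against 1.88% and 0.439%) and YY1 (4.55% against 2.53% and 3.95%) motifs had intervals that held 0 against both classes. The CRE, which is bound by the CREB and ATF families and does not contain the letters of the AP-1 motif, was in 2 members (0.606%), against 0.939% and 1.32%. At a higher peak threshold the rule took mostly other regions. With peaks of a −log10 q of at least 5 alone, 246 promoter regions met the rule, of which 49 overlapped the 330 members and 197 did not. The 197 had a peak in the full NTG list. The CRE was in 5.28% of the 246, against 0.709% (difference 4.58 points, 2.31 to 8.14) and 2.07% (3.22 points, -1.19 to 7.01). With lists of equal size it was in 2.28%, against 0.861% and 0.773%, and both intervals held 0.

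**Figure D2:**
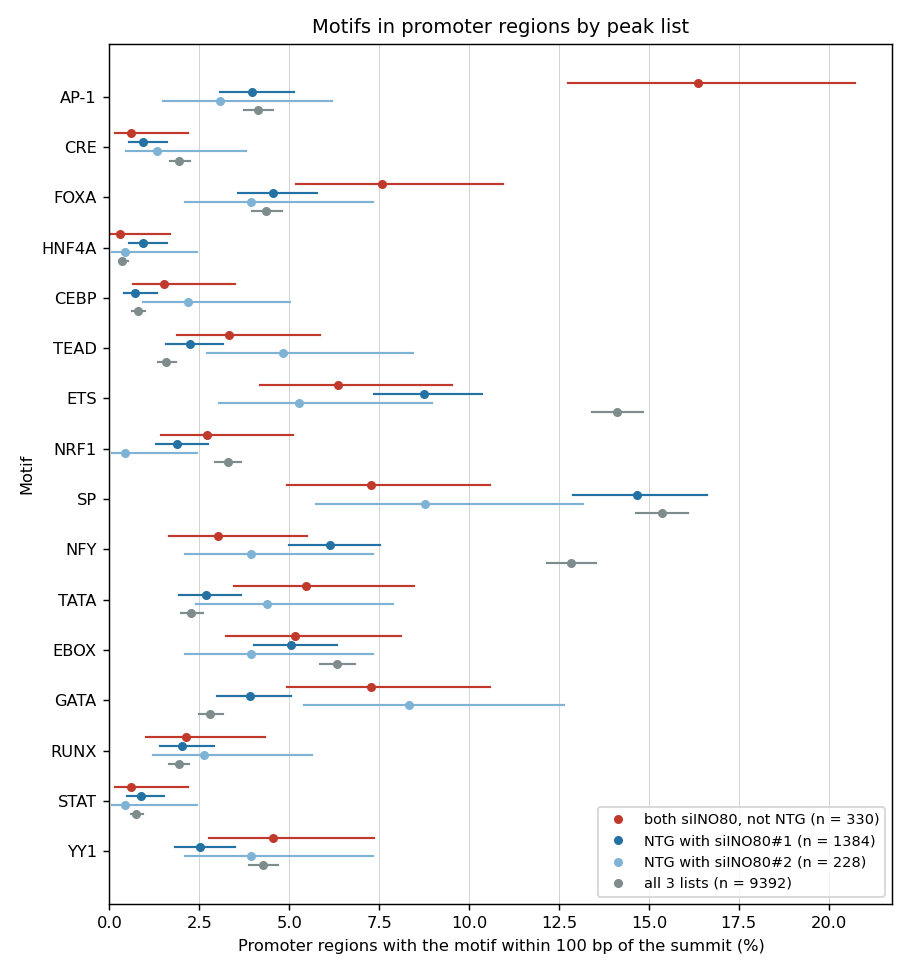
Share of promoter regions that hold each of 16 motifs within 100 bp of the strongest summit, by the lists in which the region had a peak, with 95% Wilson intervals as bars. The AP-1 point of the members, at 16.4%, lies apart from those of the other classes, all under 5%.

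The AP-1 motifs of the members were gathered at the summits. Within 50 bp of the summit there were 40 motifs in 330 members, a density of 12.0 per 100 regions and 100 bp. The density was 2.86 in the promoters of NTG with siINO80#1 and 2.61 in those of NTG with siINO80#2. At 300 to 500 bp from the summit it was 1.82, 1.21 and 0.879. The gap between the members and the other classes was therefore larger at the summit than in the flanks of the same regions.

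**Figure D3:**
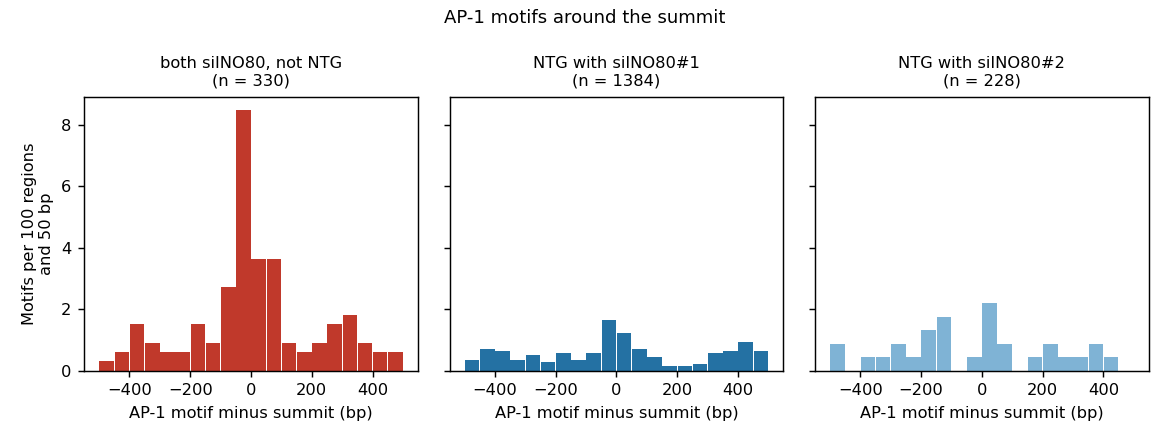
AP-1 motifs per 100 regions in bins of 50 bp, against their distance from the strongest summit in bp (in the direction of the genome), for the members (left), the promoters of NTG with siINO80#1 (middle) and those of NTG with siINO80#2 (right). The bars of the members are highest at the summit and low in the flanks.

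The members were less rich in G and C than the promoters of NTG with siINO80#1, though not than those of NTG with siINO80#2. The AP-1 share was therefore also compared within ranges of GC, chosen after the data were seen. Where the GC of the 200 bp around the summit was below 55%, 42 of 138 members held the motif (30.4%), against 8.83% of 283 and 4% of 100 promoters of NTG with siINO80#1 and siINO80#2. The differences were 21.6 points (13.5 to 30.2) and 26.4 points (17.3 to 34.9). At a GC of 55% or more, 12 of 192 members held it (6.25%), against 2.72% and 2.34%. The differences were then 3.53 points (0.651 to 7.96) and 3.91 points (-1.16 to 8.53), and the latter interval held 0. At a GC of 65% or more, 1 of 119 members held the motif (0.840%), against 1.81% of the promoters of NTG with siINO80#1 and 0 of 66 of those of NTG with siINO80#2 (interval up to 5.50%).

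**Figure D4:**
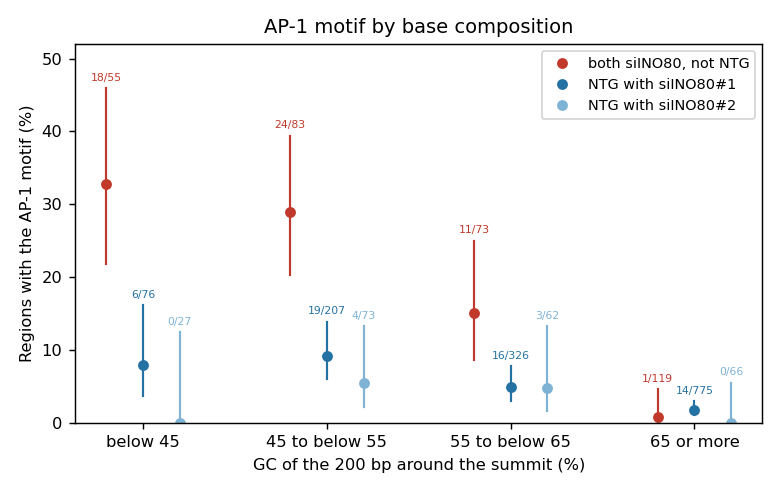
Share of promoter regions with the AP-1 motif in 4 ranges of GC, with 95% Wilson intervals as bars and the counts above them, for the members and the promoters that NTG shared with 1 siRNA. The points of the members lie above those of both other classes in the ranges below 65%, and at 65% or more they lie between them.

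The members were above both classes near the start and far from it. Members with the summit within 100 bp of a start held the motif in 12.6%, against 3.64% and 1.43%. Those more than 500 bp away held it in 22.2% (22 of 99), against 6.49% and 5.71%. The motif was also found in 18.9% (14.3 to 24.6) of the 222 members with no NTG peak within 1 kb, while the nearest NTG peak was a median of 3627 bp away over all members.

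The AP-1 share was split by kind of start in the members alone, and within them the motif went with alternative starts. It was in 38 of 132 members at other starts only (28.8%) and in 16 of 198 within 1 kb of a canonical start (8.08%), a difference of 20.7 points (12.3 to 29.5). GC moved with this split, being below 55% in 69.7% of the former and 23.2% of the latter, and its part in the difference was not tested. The share with the motif was 22% (33 of 150) where a different region of all 3 lists lay within 1 kb of a start of the gene. Where none did, it was 11.7% (21 of 180). Of the strongest members by rank, the first 110, 23.6% held the motif, and of the last 110, 10.0% did, a difference of 13.6 points (3.74 to 23.4). Members with the motif had a median GC of 49.5% against 62% without, and a median distance to the start of 311 bp against 185 bp.

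The other members with the motif were at genes of many kinds, and those named here were chosen after their values had been seen. SPRED2, an inhibitor of the RAS and MAP kinase pathway, had a pair of members at different alternative starts, with 4.64 and 3.22 and with 2.52 and 2.51, and both held the motif. CREB5, a factor of the ATF family, had 4.08 and 3.31 at an alternative start, 283 bp upstream. PLAT, the tissue plasminogen activator, had 3.73 and 3.09, and COL8A1, a short-chain collagen, had 2.99 and 2.92. CLDN4, a claudin of tight junctions, had 2.32 and 2.29 with the summit 52 bp downstream of its canonical start, and an NTG peak lay 12 bp from its region, the closest of all members. KRT8, a keratin of simple epithelia, had 2.52 and 2.16 at an alternative start. Of these genes, SPRED2, CREB5 and KRT8 had a different region of all 3 lists within 1 kb of a start, and PLAT, COL8A1 and CLDN4 had none.

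The kind of start was compared next. The members lay within 1 kb of a canonical start in 60% (54.6 to 65.1), against 79.3% of the promoters of NTG with siINO80#1 and 68.0% of those of NTG with siINO80#2. The differences were -19.3 points (-25.1 to -13.7) and -7.98 points (-15.8 to 0.158), the latter with an interval that held 0. A different region of all 3 lists lay within 1 kb of a start of the same gene for 45.5% of members (40.2 to 50.8), against 31.3% and 41.2%. The differences were 14.2 points (8.32 to 20.1) and 4.23 points (-4.14 to 12.4). That start could be the one at the member itself, so the share also counts open regions beside the same start. An NTG peak lay within 1 kb of 108 of the 330 members. With the 246 regions of a −log10 q of at least 5 the levels were lower, 29.3% against 15.1% and 22.8%, and the differences were 14.1 points (8.42 to 20.4) and 6.51 points (-2.67 to 15). Among promoter regions of all 3 lists, the shares were 89.2% at a canonical start and 22.6% with a different region of all 3 lists at the gene. The members thus differed from NTG with siINO80#1 in both respects, and no difference from NTG with siINO80#2 was detectable with 228 regions.

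Base composition also placed the members near the promoters of NTG with siINO80#2. The median GC around the summit was 58.5% in the members (95% interval of the median 55.5 to 61.5), 67% in NTG with siINO80#1, 57% in NTG with siINO80#2 and 66% in all 3 lists. The ratio of observed to expected CpG was 0.538, 0.757, 0.521 and 0.821. The summit lay a median of 194.5 bp from the nearest start in the members (157 to 240), 150 bp and 234.5 bp in the classes with NTG, and 84 bp in all 3 lists. The region itself held a start in 50.3% of members, against 62.4%, 50% and 90%. Summits were in an intron of an annotated gene in 47.9% of members, against 36.6% and 39.0%, in an exon in 29.4% and outside genes in 22.7%.

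**Figure D5:**
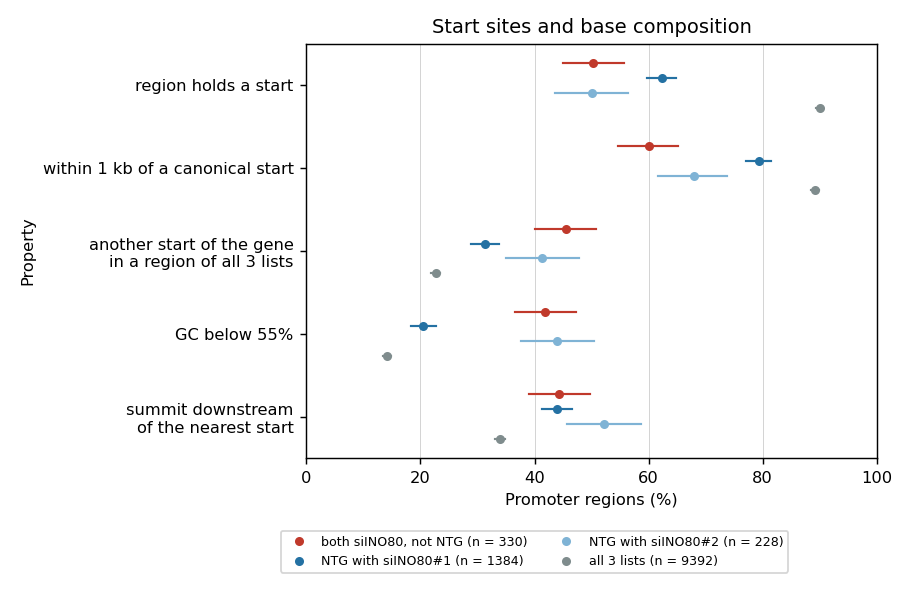
Share of promoter regions with each of 5 properties of the start and of base composition, by the lists in which the region had a peak, with 95% Wilson intervals as bars. The property labelled as another start counts a different region of all 3 lists within 1 kb of any start of the gene. The members lie near the promoters of NTG with siINO80#2 and apart from those of all 3 lists, of which 90% held a start.

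The genes at the members were set against 8 lists of genes. In all, 340 of 18886 protein-coding genes had a member at a start (1.8%). These lists were drawn up with earlier results on AP-1 in these data known, and their counts are descriptions. Of 41 genes of the list named for extracellular matrix and adhesion, 5 had a member (12.2%). In the same list, 5 genes had a promoter region of NTG alone, 4 had one of NTG with siINO80#1 and 0 had one of NTG with siINO80#2. The shares of all genes with such regions were not computed. LAMB3, a laminin subunit of the basement membrane, had a fold enrichment of 2.51 and 2.46 with the summit 17 bp downstream of its canonical start. COL4A2, a chain of basement membrane collagen, had 2.79 and 2.78 at an alternative start, 303 bp upstream. Both held the AP-1 motif shown above. ACTN1, which crosslinks actin at adhesions, had 2.38 and 1.99, LMNA, of the nuclear lamina, had 2.05 and 2.60, and S100A2, a calcium-binding protein, had 1.95 and 2.15. These 3 lay at alternative starts of genes with a different region of all 3 lists within 1 kb of a start, and none held the motif.

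Of 46 genes of the list of AP-1 and stress targets, 2 had a member, MMP10 and SPHK1, the kinase that makes sphingosine 1-phosphate. SPHK1 was among the weakest members, with 2.15 and 1.81, and an NTG peak lay 24 bp from its region. Of 36 genes of inflammation and interferon, 2 had a member by the symbols of the list. A further gene, listed as DDX58 and annotated as RIGI, was missed by symbol. It had a member with 2.92 and 2.53 at an alternative start, without the motif in the 200 bp. IFIT3, an interferon-induced antiviral protein, had 4.35 and 3.30 at an alternative start, 233 bp upstream, with the AP-1 motif. IL6, the cytokine, had 2.87 and 2.63, 536 bp upstream of its canonical start and without the motif in the 200 bp.

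At the 1.8% of all genes, lists of this size would hold few members or none, and counts of 0 are given without a reading. Of 21 genes of the AP-1 family list, which leaves out CREB5, 0 had a member, and 12 had a promoter region in all 3 lists. None of 22 p53 targets and none of 26 liver transcription factors had a member, and 20 and 18 of them had a region of all 3 lists. Of 46 genes of liver secreted proteins and enzymes, APOC3, an apolipoprotein of triglyceride-rich particles, was the one with a member, with 1.91 and 2.00 and an NTG peak 199 bp away. None of 16 genes of the INO80 complex had a member, and 15 had a region of all 3 lists. Whether the alternative starts were transcribed was not analysed here.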

How the data were processed

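ATAC-seq was performed on HepG2 cells in 3 groups (NTG, siINO80#1 and siINO80#2) with 3 replicates each, grouped by sample title. The authors deposited 1 peak list per group, with coordinates on hg19. The fold enrichment of a peak is a ratio deposited by the authors, and its p and q were deposited as −log10 values. The lowest −log10 q was 1.30. The submitters' processing notes name Trim Galore 0.4.1, Bowtie2, SAMtools, MACS2 and deepTools 2.2.4. How replicates were joined and whether reads were shifted for the transposase is not given in the sources used here. Depth can affect which weak peaks are called, and with them the class of a region. The recovered read number was lowest for NTG, which had 69730 peaks, and highest for siINO80#2, which had 53113. The part of depth in the classes was not tested.

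Peaks were merged and classed by list, and placed within 1 kb of protein-coding starts (GENCODE release 44 on GRCh37). Motifs were searched on both strands in 200 bp around the summit of highest fold enrichment. Shares have 95% Wilson intervals and differences 95% Newcombe intervals. Medians have order-statistic intervals. Groups were not tested against each other, and p-values are therefore absent. Read numbers at summits were solved from fold enrichment and −log10 p. Read totals are unknown, so no floor was set. Near-identical places were found with blastn 2.17.0.

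Named regions were the 10 highest by the smaller within-list percentile, the 8 highest with AP-1, those at listed genes, the 3 with the largest difference of percentiles, and the 2 on each side of the window's edge. Members, lists and rules were chosen with earlier results of these data known. Alternatives were a −log10 q of at least 5, equal list size, merging within 500 bp, other windows, starts and overlaps, and searches of 100 and 400 bp. Ranges of GC and distance and the split by NTG peaks within 1 kb were chosen after seeing the data. Classes, placement, motif search and read recovery were tested on simulated data and recovered in 100% of cases. Python 3.11.15, pandas 2.3.3, scipy 1.17.1, pysam 0.24.0 and bedtools 2.31.1 were used.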

Additional observations from a re-analysis of the deposited data

How the results depend on the processing

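In the 10 alternatives set out at the start, the AP-1 motif was in 10.6% to 25.5% of members and in 1.71% to 6.58% of the classes with NTG, and the members were above both classes in each. With starts of all annotated transcripts there were 718 members, the siINO80 pair made up 22.4% of promoter regions in exactly 2 lists, AP-1 was in 25.5%, 5.98% and 6.52% of the members and the classes with siINO80#1 and siINO80#2, and members had a median GC of 51% and a median distance of 286 bp. With a −log10 q of at least 5, which also thins the NTG list, there were 246 members, 49 of them overlapping the 330, and the pair share was 14.8%. Of the 246, 29.3% had a different region of all 3 lists at the gene and 5.28% held the CRE. Their median GC was 62.25% and the distance 115.5 bp. At equal list size, 202 of 438 members overlapped the 330 and the pair share was 28.8%. The share with a different region of all 3 lists at the gene was 37.4%, the CRE share 2.28% and the GC 62%. With peaks within 500 bp merged, the share with such a region was 37.2%. With a window of 500 bp it was 39.2%, with a GC of 62% and a distance of 133 bp, and with 2500 bp it was 52.6%, with a pair share of 19.3%, a GC of 53%, a distance of 587 bp and AP-1 in 5.31% of the promoters of NTG with siINO80#1. Searching 100 bp gave AP-1 in 10.6% of members and 2.75% of NTG with siINO80#1, and searching 400 bp gave 5.56% and 6.58% of the classes with NTG. Below 55% GC, AP-1 was in 30.4% of members and 8.83% of NTG with siINO80#1, and from 55% on in 6.25% and 2.72%. The other 54 of 87 values stayed within the interval or factor of 1.5 set for them. The cause of these changes was not tested. No paired analysis was possible because each group had 1 list and the lists carry no replicate values. Depth limits the result in that most members had few reads at the summit, a median of 26 and 24.5, near the 24 and 25 of all peaks in these lists. A weak peak in NTG below its threshold cannot be told apart from closed chromatin.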
